A study of Mus musculus with 6 samples.

Results

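Marrow cells of the skull vault far from the suture (CBMD) were compared between 18 months (18m) and 12 months (12m) of age by single-cell RNA-seq. The comparison held 11090 of the 37576 cells of the series that passed quality control (QC), 4464 from CBMD_12m and 6626 from CBMD_18m. Cells were kept with 500 to 5000 genes, over 500 UMIs (unique molecular identifiers, each counted as 1 captured transcript) and under 25% mitochondrial UMIs. They were then sorted by their own transcripts into neutrophils (S100a8 and S100a9 together at least 2% of UMIs), monocytes (at least 3 Ly6c2 and 1 Ccr2 UMIs), T cells (at least 2 UMIs of Cd3d, Cd3e and Cd3g together) and B cells (at least 2 Cd79a UMIs). Cells that passed more than 1 gate were set apart.

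Both groups were untreated wild-type C57BL/6 mice with no transgene, stated to be male, and each library was 1 pool of 6 to 8 mice. The parietal bone away from the sagittal suture was taken after dura and periosteum had been removed, the bone was digested with dispase and collagenase, and erythrocytes and dead cells were depleted. The same ages were sampled beside the suture (CBMA_12m and CBMA_18m), possibly from the same mice, and at 2 months (CBMD_02m). With 1 library per age and site no test across mice, or between sites, was possible, so no p-value is given, and every 95% interval below covers counting error only.

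Skull marrow makes blood cells in small cavities of the flat bones. Neutrophils are made there in stages: dividing precursors first fill primary granules, then myelocytes fill secondary granules with lactoferrin and cathelicidin. Mature cells switch to gelatinase granules and to receptors such as CXCR2 and G-CSF receptor that govern their exit to blood. Classical monocytes (Ly6c2 and Ccr2 positive) are renewed from dividing precursors, B cells pass through stages that rearrange antibody genes before some end as antibody-secreting plasma cells, and many marrow T cells are memory cells.

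The 2 libraries held 31570441 (12m) and 41669916 (18m) UMIs. Median depth of QC cells was alike, 3486.5 and 3287.5 UMIs, and the median mitochondrial share was 1.07% and 2.04%. Both libraries shared 13 barcodes. Xist, an RNA that coats the silenced X chromosome and that male cells lack, stood at 596 CPM (UMIs scaled to a library total of 1000000) in CBMD_12m and 564 CPM in CBMA_12m, and at 0.360 CPM or less in the other 4 libraries. It was found in 42.1% of CBMD_12m cells against 0.181% of CBMD_18m cells, although the mice were stated to be male. Uty, Kdm5d, Eif2s3y and Ddx3y, on the Y chromosome, summed to 91.1 CPM at 12m and 215 CPM at 18m. The 12m library was thus at odds with its label, and age and sex cannot be told apart. X- and Y-linked genes were left out of all results, and main values are repeated in cells with a Y-linked UMI and no Xist UMI (Y-positive cells), 843 at 12m and 3546 at 18m. Of neutrophils 16.4% and of monocytes 28.1% were in this set at 12m, and 46.3% and 71.7% at 18m, so it samples the classes unevenly. In CBMD_12m 152 of the 995 cells with a Y-linked UMI also held Xist, so some cells of the set may not be male.

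One more feature bears on every level in CPM. The predicted gene Gm42418, which overlaps ribosomal RNA sequence, held 260337 UMIs at 12m and 1834460 at 18m in all QC cells, out of 21250338 at each age once the larger library was thinned to the smaller total. In gated neutrophils it held 73465 and 429548 of 7852786 UMIs and in T cells 20092 and 214348 of 1230725. Each UMI it took at 18m was missing from the other genes, so levels of the rest are read beside the median gene of each class.

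At 18m the marrow held a larger share of monocytes and a smaller share of T and B cells than at 12m. Monocytes made up 7.01% (6.28 to 7.80; 313 cells) at 12m and 12.1% (11.3 to 12.9; 802 cells) at 18m, a ratio of 1.73 (1.51 to 1.97). T cells stood at 6.63% (5.92 to 7.4; 296 cells) and 3.34% (2.92 to 3.8; 221 cells), a ratio of 0.503 (0.421 to 0.601). B cells stood at 7.12% (6.39 to 7.92; 318 cells) and 2.87% (2.48 to 3.30; 190 cells), a ratio of 0.403 (0.335 to 0.483). The intervals of the 2 ages did not overlap for any of these classes. Neutrophils, the most numerous class, differed least, with 53.0% (51.6 to 54.5; 2368 cells) and 57.7% (56.5 to 58.9; 3821 cells), and 22.9% and 22.1% of cells passed no gate. These are shares of a whole, so a fall of 1 class in number and a rise of another cannot be told apart.

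The direction of all 4 shares was the same in Y-positive cells, where neutrophils stood at 46.1% and 49.9%, monocytes at 10.4% and 16.2%, T cells at 7.95% and 4.34%, and B cells at 10.4% and 3.72%. Depth moved the gates, because a deeper cell passes a fixed count more easily. With every cell thinned to 1000 UMIs first, the shares were 1.21% and 2.33% for monocytes, 3.37% and 1.19% for T cells and 4.36% and 1.01% for B cells. At 2 months the same gates gave 21.7% monocytes, 0.729% T cells and 0.465% B cells, so for each of these classes the 18m share lay between those of 2 and 12 months. Beside the suture, T cells stood at 3.27% (2.64 to 4.01) at 12m and 4.36% (3.90 to 4.85) at 18m and B cells at 1.80% (1.34 to 2.38) and 1.69% (1.40 to 2.01), without the drop seen in CBMD. Monocytes there stood at 8.98% (7.93 to 10.1) and 11.3% (10.5 to 12.0) and neutrophils at 51.6% and 55.8%, both in the same direction as in CBMD.

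**Figure D1:**
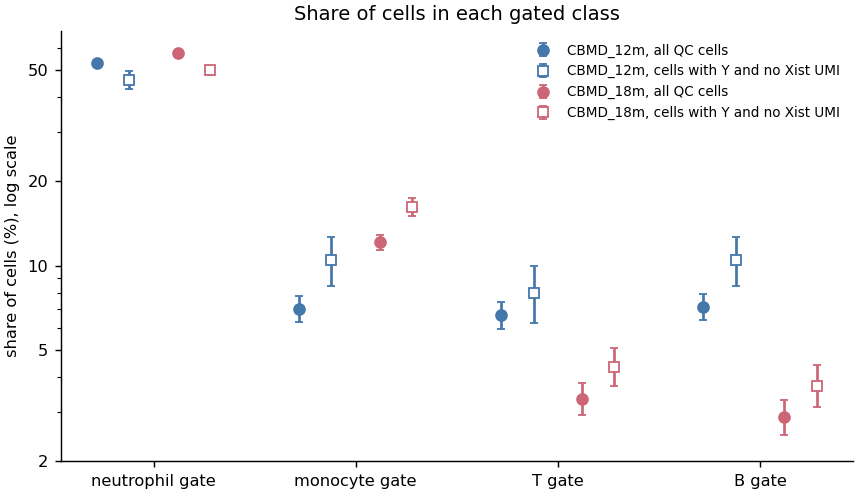
Share of cells in each gated class (%, log scale) in CBMD_12m and CBMD_18m, for all QC cells and for Y-positive cells, with exact 95% binomial intervals. Monocytes stand higher and T and B cells lower at 18m in both sets of cells, and neutrophils differ least.

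In all QC cells, markers of T cells, B cells and monocytes moved with the shares of these classes, and neutrophil markers did not. A gene was called higher or lower at 18m when its CPM differed at least 1.5-fold after the larger library was thinned to the UMI total of the smaller, with at least 50 UMIs over both. Of 14126 genes measured so, 6.41% (906) were higher and 17.6% (2491) lower, and this is the background for the counts in all cells. In Y-positive cells 8.65% of 10266 genes were higher and 12.8% lower, and beside the suture 10.8% of 13041 were higher and 15.7% lower. All 8 measured T cell markers and all 6 B cell markers were lower, with median log2 ratios of −1.42 and −1.69. Cd3d, Cd3e and Cd3g of the first list and Cd79a of the second also set the gates, so their levels are not independent of the shares. Trac, the T cell receptor alpha constant region, stood at 54.3 CPM at 12m and 18.0 CPM at 18m, 3.01-fold lower (2.68 to 3.39), and Cd79a, a signaling chain of the B cell receptor, at 174 and 64.5 CPM. In bulk sums like these, fewer cells of a type and less RNA per cell cannot be told apart. Weighting the classes alike in both libraries left the T marker median at −0.42. Of 11 neutrophil markers 6 were lower and 3 higher (median −0.66), although the neutrophil share was larger at 18m.

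Of 7 monocyte markers 4 were higher and none lower, with a median log2 ratio of 0.90. Vcan, the matrix proteoglycan versican of classical monocytes, stood at 30.4 and 150 CPM, 4.93-fold higher (4.53 to 5.38). F13a1, the coagulation factor XIII A chain, stood at 286 and 702 CPM. Fn1, fibronectin, stood at 462 and 923 CPM and the chemokine receptor Ccr2 at 229 and 492 CPM. Ms4a6c, a membrane protein of the monocyte lineage, stood at 217 and 405 CPM. F13a1, Fn1, Ccr2 and Ms4a6c are the 4 higher markers, and Ccr2 and Ly6c2 of the 7 also set the gate. Vcan belongs to a wider monocyte list, of which 9 of 28 genes were higher and 3 lower (median 0.33). The 7 markers had a median of 0.21 beside the suture. Macrophage markers also stood higher for 4 of 6 measured, with a median of 0.60, among them the complement gene C1qb (33.2 and 65.9 CPM) and the adhesion molecule Vcam1 (38.3 and 76.6 CPM), each near 2-fold. Markers of nonclassical monocytes went the other way, with 5 of 6 lower and a median of −1.04, as in Ace, angiotensin-converting enzyme, at 20.5 and 7.86 CPM.

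Of 56 genes of the G2 and M phases of the cell cycle, 19 were higher and none lower in all cells, with a median of 0.41. Mki67, which marks dividing cells, stood at 156 and 298 CPM, 1.91-fold higher (1.83 to 2.00), and 2.08-fold higher in Y-positive cells. Beside the suture the same ages gave 30 of 56 genes lower and none higher, and Mki67 at 0.854 of its 12m level. Weighted alike by class, the CBMD median was 0.22, with cells thinned to 1000 UMIs it was 0.03, and as a mean of CPM over cells it was −0.10.

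Other cells in the suspension also differed between the libraries. All 8 measured erythroid markers were lower at 18m, with a summed level of 8977 CPM at 12m and 1067 CPM at 18m (median −2.37). In Y-positive cells 5 of the 8 were lower and 1 higher (median −0.79), and within CBMD_12m the list stood higher in Xist-positive than in Y-positive cells, with a median of 2.17. Hemoglobin beta (Hbb-bs) stood at 4221 and 474 CPM, and 43.1% of its 12m UMIs lay in 5 cells. Of 5 mural markers 4 were lower (median −3.31) and of 9 mesenchymal markers 5 (median −0.89), and these too rested on few cells, with 90.1% of the 12m UMIs of Myh11, smooth muscle myosin, and 97.2% of those of Col3a1, type III collagen, in 5 cells. Lysis of red cells and the dissection may change these levels, which was not tested.

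Neutrophils at 18m carried less secondary granule message than at 12m, while genes of mature neutrophils were split. Of 9197 genes measured in gated neutrophils, 11.1% (1023) were higher and 24.9% (2294) lower. The median gene stood at a log2 ratio of −0.14. Centred on that gene, 1518 genes (16.5%) were higher and 1765 (19.2%) lower. In Y-positive neutrophils 15.4% of 4580 genes were higher and 16.6% lower, and beside the suture 11.4% of 8855 were higher and 42.4% lower, so lists that were lower there are read beside that larger share. Median depth of these cells was 2782 and 2691 UMIs.

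Of 15 measured secondary granule genes 10 were lower and none higher (median −0.75), and after centring 8 were lower and 1 higher. Ltf (chr9:111019271-111042767 of GRCm38), lactoferrin, stood at 1803 CPM at 12m and 479 CPM at 18m, 3.76-fold lower (3.63 to 3.90). Ngp, a cathelicidin-related granule protein, stood at 6584 and 1919 CPM, and the cathelicidin Camp at 7304 and 3060 CPM. Chil3, a chitinase-like protein, and Itgb2l, an integrin beta chain, were 2.62-fold and 2.52-fold lower. All 5 were also lower beside the suture (Ltf at 0.288 of its 12m level) and in Y-positive cells (Ltf at 0.290). Across the list, 11 of 15 genes were lower beside the suture.

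Counted by cell, neutrophils with Ltf, Camp and Ngp together at 0.5% of UMIs or more made up 21.8% (20.1 to 23.6; 470 of 2158) at 12m and 6.73% (5.95 to 7.57; 255 of 3790) at 18m, each cell thinned to 1000 UMIs. Unthinned cells gave 20.7% and 6.33%, and Y-positive cells 18.4% and 6.03%. B cells, which do not make these proteins, passed this gate in 1 of 314 cells at 12m and in 0 of 190 cells at 18m, which allows a share of up to 1.58%. Beside the suture the share stood at 34.3% and 7.51%, and at 2 months far from it at 4.68%. Within the cells of this gate, the median of the secondary granule genes was −0.22, and within the rest −0.34, with Camp and Chil3 at log2 ratios of 0.19 and 0.04 inside the gate. Ltf, Camp and Ngp set the gate and belong to the list, so the split itself draws these values toward 0 and nothing is read from them.

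Of 20 genes of gelatinase granules and mature neutrophils 5 were higher and 5 lower (median 0.06), so the list did not move as 1 group. The higher and lower members both included receptors. Cxcr2 (chr1:74153989-74161246), the receptor that draws neutrophils out of marrow, stood at 480 and 1432 CPM, 2.99-fold higher (2.88 to 3.10), 2.72-fold beside the suture and 2.96-fold in Y-positive cells. It was found in 34.5% of thinned cells at 12m and 67.7% at 18m, and in 60.3% and 86.5% of unthinned ones. Csf3r, the G-CSF receptor, was 1.95-fold higher (1.90 to 2.00). Wfdc17, a whey acidic protein family member, stood at 400 and 1131 CPM. The collagenase Mmp8 stood at 1300.0 and 2085 CPM. Lower members were the decoy receptor Il1r2 (993 and 625 CPM), the ion transporter Slc11a1 (237 and 122 CPM), Cxcr4 (704 and 361 CPM), Ly6g (353 and 209 CPM) and Trem3 (399 and 231 CPM). Mmp8 and the lower members were named after their values were seen. Cxcr4 holds neutrophils in marrow.

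Other named genes had higher ratios. Steap4, a metalloreductase, stood at 7.13 and 54.5 CPM, 7.64-fold higher (5.77 to 10.3), and 9.28-fold beside the suture. Cxcr1, the partner receptor of Cxcr2, stood at 5.60 and 27.3 CPM, 4.86-fold higher (3.50 to 6.89). Egln3, an oxygen-sensing prolyl hydroxylase, was 5.39-fold higher (4.12 to 7.15) and Prr5l, a component that binds mTOR complex 2, 4.30-fold (3.69 to 5.03). Prr5l had the opposite sign within neutrophils with secondary granule message (log2 ratio −0.58). Each was also higher beside the suture and in Y-positive cells. Of the stefin A genes, cysteine protease inhibitors in a tandem cluster, 5 of 6 measured were higher (median 0.78), with Stfa1 at 66.9 and 115 CPM and Stfa2 at 11.7 and 27.8 CPM. These near-identical copies can share reads, so the level of each is uncertain.

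**Figure D2:**
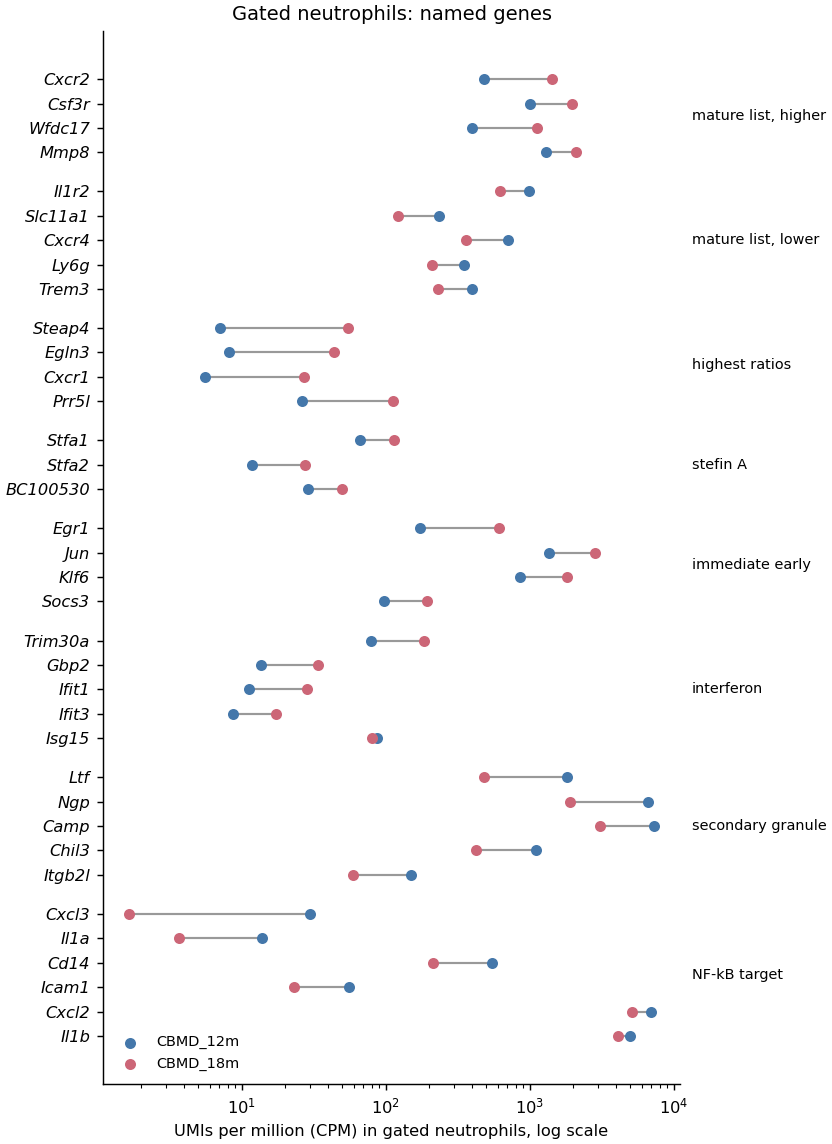
Level of named genes in gated neutrophils (CPM, log scale) in CBMD_12m and CBMD_18m, 1 row per gene, grouped by role. The mature neutrophil list has members on either side, Egr1 lies higher at 18m and secondary granule genes and Cxcl3 lower, while Isg15 and Il1b lie close together.

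Immediate early genes, transcription factors induced within minutes of a stimulus, split in neutrophils: 9 of 38 were higher and 4 lower (median 0.09). Egr1 stood at 174 and 616 CPM, 3.54-fold higher (3.33 to 3.76), Klf6 at 852 and 1816 CPM and Jun at 1361 and 2830 CPM. Socs3, which dampens G-CSF and IL-6 signaling, stood at 96.9 and 193 CPM. These 4 were higher at 18m, whereas Nr4a1 stood at 916 and 643 CPM. Within neutrophils that carried secondary granule message the list was lower instead, with a median of −0.79, −0.05 for Jun and −0.33 for Socs3. Cell dissociation can induce such genes, and its part in these values was not tested.

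Targets of NF-kB and other genes of activated neutrophils were lower for 10 of 34 and higher for 2 (median −0.25), a share near the 24.9% of all neutrophil genes that were lower, so nothing is read from the list as a whole. After centring 8 were lower, and in Y-positive cells 5 of 32 (median −0.12). Single members differed more. Cxcl3, a CXCR2 ligand, stood at 30.1 and 1.66 CPM, 18.2-fold lower (10.4 to 34.6). Cd14, the lipopolysaccharide co-receptor, stood at 550 and 212 CPM, and Icam1, an adhesion molecule, at 55.3 and 23.3 CPM. The cytokine Il1a stood at 13.8 and 3.69 CPM. The 2 most abundant cytokines of these cells changed less: Il1b stood at 4953 and 4109 CPM and Cxcl2 at 6967 and 5153 CPM. Beside the suture the list moved the other way, with 27 of 33 genes higher and 1 lower, Cd14 6.61-fold higher and Cxcl2 5.64-fold higher. Lmnb1, the nuclear lamin B1 (636 and 807 CPM), the integrin chain Itgam (481 and 457 CPM) and the mRNA decay factor Zfp36l2 (759 and 780 CPM) did not pass the fold in neutrophils.

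Interferon-stimulated genes, which cells switch on through a promoter element that binds STAT and IRF proteins, were higher for 13 of 42 measured and lower for 2 (median 0.35). After centring, 18 were higher and 2 lower. Trim30a, a ubiquitin ligase, stood at 79.6 and 184 CPM, 2.31-fold higher (2.10 to 2.55). Gbp2, a guanylate-binding protein, stood at 13.6 and 34.1 CPM and Ifit1 (chr19:34640871-34650009), which binds viral RNA, at 11.3 and 28.4 CPM, 2.51-fold higher (1.95 to 3.24). Isg15, a ubiquitin-like protein, did not pass the fold, with 86.6 and 80.2 CPM. Ifit3 stood at 8.79 and 17.3 CPM but can share reads with its copy Ifit3b. In Y-positive cells 13 of 22 genes were higher and 1 lower (median 0.69), and beside the suture 11 of 40 were higher and 2 lower.

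The letters of the interferon response element, GAAA and GAAA with any 2 letters between them on either strand, were searched in the 250 bases before each start in RefSeq (GRCm38.p6), where 3.46% of 27025 genes hold them. Of the 33 measured interferon-stimulated genes with a window 18 held them, and of the 11 higher ones with a window 8 did. The windows of the 3 genes above are shown on the strand of the gene because they carry the element, which is in capitals. A match describes the letters and is no proof of use. Gbp2 lies at chr3:142620413-142620662 on the plus strand, Ifit1 at chr19:34640639-34640888 on the plus strand with 2 matches, and Trim30a at chr7:104465194-104465443 on the minus strand.
Gbp2: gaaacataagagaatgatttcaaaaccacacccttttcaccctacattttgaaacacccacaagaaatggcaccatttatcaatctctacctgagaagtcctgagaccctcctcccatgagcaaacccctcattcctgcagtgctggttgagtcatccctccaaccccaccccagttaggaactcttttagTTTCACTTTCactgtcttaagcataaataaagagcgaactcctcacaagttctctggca
Ifit1: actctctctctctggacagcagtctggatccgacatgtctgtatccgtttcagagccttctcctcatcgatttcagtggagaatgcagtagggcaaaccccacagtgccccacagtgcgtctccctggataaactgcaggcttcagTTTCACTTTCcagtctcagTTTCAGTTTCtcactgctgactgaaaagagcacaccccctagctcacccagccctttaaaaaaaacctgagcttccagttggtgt
Trim30a: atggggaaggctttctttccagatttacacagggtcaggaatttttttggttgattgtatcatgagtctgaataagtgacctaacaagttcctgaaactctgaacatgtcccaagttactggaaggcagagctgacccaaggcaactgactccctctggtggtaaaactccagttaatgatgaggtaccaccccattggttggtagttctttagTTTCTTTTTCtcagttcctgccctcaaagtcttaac

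S phase, histone and ribosomal protein genes were lower in gated neutrophils at 18m. The direction of the G2 and M phase genes changed with the cells that were counted. Of 39 measured S phase genes 24 were lower and none higher (median −0.65), and of 32 replication-dependent histone genes 23 and none (median −0.87), led by Hist1h2ap with 431 and 113 CPM, 3.81-fold lower (3.53 to 4.10). Neutrophils with an Mki67 or Top2a UMI made up 7.78% (6.69 to 9.0) at 12m and 4.99% (4.32 to 5.73) at 18m in thinned cells and 14.4% and 8.51% in unthinned ones. Of 54 G2 and M phase genes 3 were higher and 11 lower (median −0.18), fewer than the 24.9% of all genes that were lower, and in Y-positive cells 7 of 18 were higher and none lower (median 0.47). Within neutrophils with secondary granule message the G2 and M median was 1.39, and within those without it −1.13. As a mean of CPM over cells it was −0.79 in all gated neutrophils. Beside the suture nearly the whole lists were lower, 39 of the S phase genes and 49 of the G2 and M genes. In Y-positive cells only 8 S phase genes were measured, of which 1 was lower (median 0.02), and of 12 histone genes 5 were lower and 1 higher (median −0.49).

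Of 82 measured genes of the cytosolic ribosome 62 were lower and none higher (median −0.84), 52 after centring and 45 of 78 in Y-positive cells. Of 75 nuclear genes of oxidative phosphorylation 42 were lower and none higher (median −0.61). Within neutrophils with secondary granule message these 2 medians were −0.12 and −0.16, and the S phase and histone medians were above 0, at 0.53 and 0.09. Within neutrophils without it the ribosomal median was −1.0.

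Several values of other cell types moved beside these results. The 6 measured erythroid markers summed to 4243 CPM in gated neutrophils at 12m and 299 CPM at 18m, and all were lower (median −3.83). In Y-positive neutrophils 3 of 4 measured were lower (median −0.78). Hbb-bs alone went from 2021 to 152 CPM, with 68.1% of its 12m UMIs in 5 cells. Mt2, a metallothionein, had 150 UMIs at 12m and 4 at 18m. The part of free or attached erythroid RNA in the other values was not tested.

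Monocytes at 18m held more message for cell division and less for inflammation than at 12m. Of 8592 genes measured in gated monocytes 7.22% (620) were higher and 11% (947) lower, with a median gene at −0.04. Y-positive monocytes had 8.24% of 5328 genes higher and 11.1% lower, and monocytes beside the suture 4.44% of 7913 higher and 10.3% lower. The gated cells were alike in depth, 9435 and 9820 UMIs. Ly6c2 stood at 2080 and 1988 CPM and Ccr2 at 1126 and 1313 CPM, and these 2 genes chose the cells. Fn1 stood at 2715 and 2919 CPM. Of 4 measured markers of nonclassical monocytes 3 were lower, Ace, Nr4a1 and Treml4 (median −1.37), and their summed level was 827 and 353 CPM. Of the 27 measured genes of a wider monocyte list 3 were higher and 3 lower (median 0.10). Vcan, again, stood at 181 and 455 CPM, 2.51-fold higher (2.27 to 2.78), and 2.32-fold beside the suture, so it was higher within the gated class too. The part of the monocyte share in its level over all cells was not tested.

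Of 55 measured G2 and M phase genes 34 were higher and none lower (median 0.69). Mki67 stood at 249 and 569 CPM, 2.28-fold higher (2.09 to 2.49), and Top2a, which untangles chromosomes before they part, at 272 and 459 CPM. The mitotic kinesin Kif20b was 3.15-fold higher (2.31 to 4.36), the spindle protein Hmmr 2.83-fold (2.24 to 3.60) and the checkpoint kinase Bub1b 2.58-fold (2.01 to 3.34). Of 41 S phase genes 7 were higher and none lower (median 0.39), and of 30 histone genes 17 were higher and 1 lower (median 0.96). Hist1h3c stood at 26.8 and 126 CPM, 4.71-fold higher (3.69 to 6.08), and 2.62-fold beside the suture.

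Counted by cell, monocytes with an Mki67 or Top2a UMI made up 17.9% (13.8 to 22.6; 56 of 313) at 12m and 28.9% (25.8 to 32.2; 232 of 802) at 18m after thinning to 1000 UMIs. Unthinned shares were 35.5% and 46.0%, and Y-positive cells gave 15.9% and 29.9%. In neutrophils without secondary granule message, most of which have stopped dividing, the thinned shares were 4.80% and 2.89%. The lists and the cell count went the same way in Y-positive cells, where 25 of 46 G2 and M genes were higher. Beside the suture they did not: 1 of 53 G2 and M genes was lower and none higher (median −0.04), with 26.9% (21.4 to 32.9) and 23.1% (20.3 to 26.2) of monocytes in the gate. The 2-month share far from the suture was 33.6%.

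**Figure D3:**
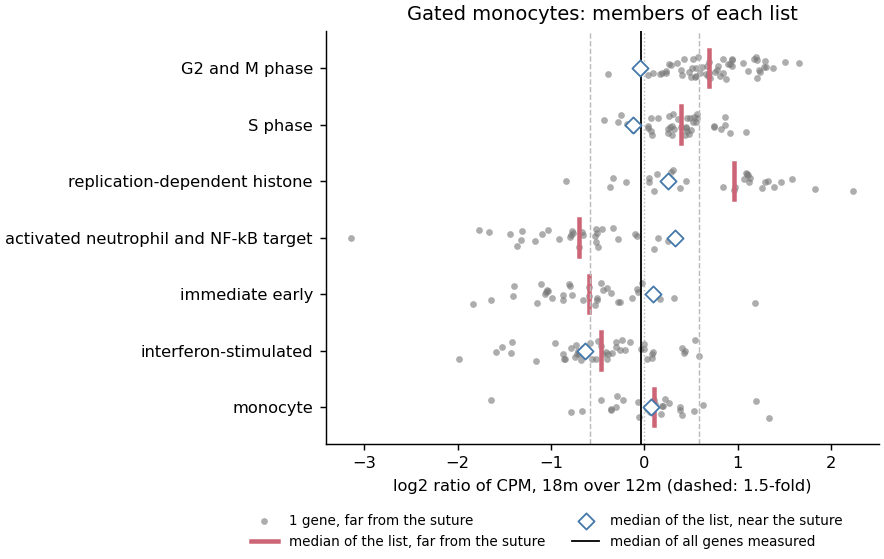
Log2 ratio of 18m to 12m in gated monocytes far from the suture for each measured gene of fixed lists (points), with the median of each list (bar), the median beside the suture (diamond) and the median of all genes measured (line). Cell division lists lie right of that line and inflammatory and immediate early lists left of it, with the suture medians of these last 2 on the other side of 0.

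Of 31 NF-kB target genes 18 were lower in monocytes and none higher (median −0.70). Tnfaip3, which shuts off NF-kB signaling, stood at 288 and 84.8 CPM, 3.40-fold lower (2.95 to 3.93), and at 0.273 of its 12m level in Y-positive cells. Il1b stood at 289 and 91.2 CPM, but 43.9% of its 12m UMIs lay in 5 cells and in Y-positive cells its ratio was 0.918. The cytokine Osm stood at 141 and 52.0 CPM. Acod1, which makes itaconate, went from 35.5 to 4.02 CPM. Cd83, an activation marker of antigen-presenting cells, was 11.7-fold lower (6.79 to 21.9), and Abca1, a cholesterol exporter, 10.5-fold (5.80 to 20.9). Cxcl9, a chemokine induced by interferon gamma, went the other way, with 3 and 111 UMIs, a ratio of 37.0 (12.3 to 182), and 89.7% of the 18m UMIs in 5 cells.

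Of 37 immediate early genes 19 were lower and 1 higher (median −0.59). Nr4a1 stood at 715 and 228 CPM, 3.13-fold lower (2.87 to 3.42), and its relative Nr4a3 at 148 and 41.6 CPM. Egr1 was the higher one, with 108 and 246 CPM, and was thus higher in monocytes and neutrophils alike. In Y-positive cells 15 of 35 members were lower and 3 higher, and 10 of 27 NF-kB targets lower and 1 higher. Beside the suture both lists leaned upward, with 8 of 35 immediate early and 12 of 29 NF-kB targets higher, Tnfaip3 1.99-fold and Cd83 9.33-fold (2.88 to 48.0).

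The neutrophil markers in gated monocytes moved in step with these lists. Of 10 measured 6 were lower, and their summed level was 2302 CPM at 12m and 1241 CPM at 18m. Erythroid markers summed to 4370 and 40.9 CPM. Their part in the inflammatory values was not tested.

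Interferon-stimulated genes went opposite ways in gated monocytes and neutrophils, but not in the Y-positive cells of these classes. In monocytes 20 of 47 were lower and 1 higher (median −0.46), against 13 higher of 42 in neutrophils, a difference that was not tested. Rsad2, the antiviral enzyme viperin, stood at 94.2 and 23.8 CPM, 3.96-fold lower (3.04 to 5.21), and Isg15 at 59.0 and 35.9 CPM. Ifit1 stood at 18.1 and 10.1 CPM on 54 and 30 UMIs, with 64.8% of the 12m UMIs in 5 cells. Beside the suture 25 genes were lower and none higher. The direction did not hold in Y-positive cells, where 6 of 27 were higher and 3 lower (median 0.24) and Isg15 was at 1.18 of its 12m level. Within CBMD_12m monocytes the list stood higher in Xist-positive than in Y-positive cells, with a median of 0.75.

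The interferon letters were in 8 of the 15 lower genes with a window and in 20 of 36 measured, so the same element lies before genes that were lower in monocytes and genes that were higher in neutrophils. In Y-positive cells the interferon list leaned upward in both classes. The NF-kB letters, GGGA and TTTCC or GGGAA and TTCC with any 1 letter between them on either strand, were in 0.64% of all genes, in 3 of the 23 measured NF-kB targets with a window (Cxcl2, Nfkb2 and Nfkbia) and in 1 of the 13 lower ones, Cxcl2. Cxcl2 stood at 314 and 167 CPM in monocytes, and at 1.07 of its 12m level in Y-positive ones. The windows of Rsad2 (chr12:26456453-26456702, minus strand) and Cxcl2 (chr5:90903649-90903898, plus strand) show 1 element of each kind in capitals. In Cxcl2 the capitals cover 2 overlapping matches.
Rsad2: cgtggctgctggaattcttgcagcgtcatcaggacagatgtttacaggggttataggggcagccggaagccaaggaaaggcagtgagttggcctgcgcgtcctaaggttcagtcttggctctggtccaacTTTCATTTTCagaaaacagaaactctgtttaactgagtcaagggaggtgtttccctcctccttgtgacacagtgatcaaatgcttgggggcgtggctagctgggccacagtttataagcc
Cxcl2: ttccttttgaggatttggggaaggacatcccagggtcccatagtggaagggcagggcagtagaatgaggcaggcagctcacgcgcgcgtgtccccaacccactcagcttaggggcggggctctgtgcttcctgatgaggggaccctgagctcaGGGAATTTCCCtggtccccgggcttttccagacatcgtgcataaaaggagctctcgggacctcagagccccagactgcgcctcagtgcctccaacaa

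Gated T cells at 18m held a larger part of cells with Cd8 message and lower levels of some, not most, genes of regulatory and naive cells. Of 5603 genes measured 8.92% (500) were higher and 15% (840) lower, with a median gene at −0.05 and depths of 5718 and 5349 UMIs. Y-positive T cells had 13.7% of 2061 genes higher and 19.3% lower, and T cells beside the suture 4.78% of 3204 higher and 20.8% lower. The 8 T cell markers all stayed within 1.5-fold (median −0.32), 3476 and 2866 CPM together, but Cd3d, Cd3e and Cd3g among them chose the cells. Cd8a, the co-receptor chain of cytotoxic cells, stood at 111 and 147 CPM and Cd8b1 at 161 and 228 CPM, neither past the fold, while Cd4 stood at 53.6 and 54.4 CPM.

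Counted by cell, T cells with a Cd8 UMI and no Cd4 UMI made up 16.2% (12.2 to 20.9) at 12m and 25.9% (20.3 to 32.2) at 18m after thinning, intervals that overlap slightly. Unthinned shares were 34.8% and 50.2%, and Y-positive cells gave 13.4% and 28.8%. Cells with a Cd4 UMI and no Cd8 UMI stood at 4.73% and 5.45%. In neutrophils a Cd8 UMI was found in 0.417% and 0.0792% of thinned cells. Beside the suture the Cd8 share was 28.1% (19.1 to 38.6) and 19.4% (15.1 to 24.2), without the increase. At 1000 UMIs 78.4% and 68.6% of T cells had neither transcript, so these shares are minimum values.

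Of 16 measured genes of regulatory, helper and gamma delta T cells 7 were lower and none higher (median −0.52). Ikzf2, the transcription factor Helios, stood at 817 and 285 CPM, 2.86-fold lower (2.53 to 3.24). Ctla4, an inhibitory receptor of regulatory cells, stood at 96.7 and 34.9 CPM, Il2ra, the high-affinity IL-2 receptor chain, at 80.4 and 33.3 CPM and Tnfrsf4, the co-stimulatory receptor OX40, at 45.5 and 14.6 CPM. All 4 had ratios under 1 in Y-positive cells as well (Ikzf2 at 0.337 of its 12m level) and beside the suture, where 6 of 12 members were lower and 1 higher. The lower genes are also carried by cells other than regulatory T cells, and Foxp3, which defines these, did not reach 50 UMIs.

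Of 10 genes of naive T cells 4 were lower and 1 higher (median −0.15). Satb1, a chromatin organizer, stood at 1007 and 441 CPM, Klf2, which keeps naive cells circulating, at 816 and 370 CPM and the lymph node homing receptor Ccr7 at 158 and 69.1 CPM. The higher gene was Dapl1. Satb1 and Ccr7 were not lower beside the suture, with ratios of 1.20 and 1.06, whereas Klf2 was at 0.484 there.

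Of 26 cytotoxic and age-associated genes 5 were higher and 2 lower (median −0.01), and Y-positive cells had 6 of 18 higher and 1 lower (median 0.47). Gzmk (chr13:113171608-113225908), the granzyme of age-associated T cells, had 10 UMIs at 12m and 41 at 18m, 4.10-fold higher (2.02 to 9.18), and a ratio of 0.710 (0.392 to 1.27) beside the suture. In addition Pdcd1, Prf1, Ifng and Id2 were higher, named after their values were seen, with the pore-forming perforin Prf1 at 23.6 and 52.8 CPM and the cytokine Ifng at 108 and 198 CPM. Eomes and Tox, transcription factors of the same state, did not differ past the fold, with 161 and 160 CPM for Eomes and 156 and 127 CPM for Tox. Ccl5, their most abundant chemokine, stood at 5365 and 3726 CPM.

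Of 24 G2 and M genes 13 were higher in T cells (median 0.79), but few cells carried them. Mki67 stood at 13 and 182 CPM with 68.3% of its 18m UMIs in 5 cells, and 83.0% of those of Cenpf lay in 5 cells. Cells with an Mki67 or Top2a UMI numbered 10 of 296 (3.38%) and 13 of 220 (5.91%) after thinning. Ribosomal protein genes were lower for 61 of 79 and higher for 1 (median −0.84), and NF-kB targets lower for 7 of 21 and higher for 1 (median −0.51). Beside these results, neutrophil markers in gated T cells summed to 1996 and 953 CPM and erythroid markers to 6191 and 488 CPM, whose part was not tested. In Y-positive T cells 2 of 4 erythroid markers were higher and none lower (median 0.37).

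B cells at 18m held less message of precursors and more of antibody-secreting cells than at 12m. Of 6973 genes measured 2.88% (201) were higher and 45.2% (3153) lower, and the median gene stood at −0.53. Immunoglobulin transcripts took 26.3% of UMIs at 12m and 38.6% at 18m, which lowers every other gene in CPM. Centred on the median gene 824 genes (11.8%) were higher and 905 (13%) lower, and with immunoglobulin genes left out of the totals 347 and 1658. In Y-positive B cells 3.65% of 3126 genes were higher and 34.5% lower, and beside the suture 8.5% of 1836 were higher and 13.2% lower. The class was deeper at 18m, 7659.5 against 4775.5 UMIs at the median.

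Of 14 measured genes of B cell precursors all 14 were lower (median −1.91), and 12 after centring. Rag1 (chr2:101638282-101649501), which cuts antibody genes for rearrangement, had 93 UMIs at 12m and 1 at 18m, 93.0-fold lower (16.3 to 3712). Il7r, the receptor for the growth factor of early B cells, stood at 55.8 and 3.41 CPM, 16.4-fold lower (8.07 to 38.7). The genes of the surrogate light chain, which stands in for the light chain before it is made, were lower too, with Vpreb1 at 50.7 and 16.6 CPM and Igll1 at 27.3 and 7.67 CPM. The related Vpreb3, which is no part of that chain and is also carried by later B cells, stood at 428 and 96.3 CPM. The transcription factor Myb was 7.33-fold lower (5.16 to 10.7) and Ebf1, which commits cells to the B lineage, 3.47-fold (3.20 to 3.77). In Y-positive cells 7 of 8 measured precursor genes were lower (median −1.91). Beside the suture only 4 were measured (median −0.41), and Rag1 there had a ratio of 5.50 (1.87 to 22) in the opposite direction.

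Counted by cell, B cells with a UMI of Vpreb1, Vpreb3 or Igll1 made up 31.2% (26.1 to 36.7; 98 of 314) at 12m and 10.0% (6.13 to 15.2; 19 of 190) at 18m after thinning to 1000 UMIs. Unthinned shares were 53.8% and 30.5%, and Y-positive cells gave 29.5% and 6.82%. No T cell carried such a UMI, 0 of 296 and 0 of 220, which allows shares of up to 1.01% and 1.36%. Vpreb3 had the most UMIs of the 3 genes. Beside the suture 20.8% (10.5 to 35.0) and 16.5% (10.4 to 24.4) of B cells did.

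Mature B cell genes were lower for 20 of 24 and higher for 1 (median −0.91), but centring left 9 lower and 1 higher and thinning before gating turned the median to 0.05. Fcer2a, the IgE receptor CD23 of follicular cells, stood at 146 and 39.2 CPM, 3.73-fold lower (2.95 to 4.75), and Ighd, the IgD heavy chain, at 352 and 110 CPM. In Y-positive cells 10 members were lower and none higher. Cd79a, which chose the cells, stood at 1386 and 755 CPM.

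Plasma and age-associated B cell genes leaned upward, 6 of 15 higher and 2 lower (median 0.47), and 11 higher and 1 lower after centring. Jchain, which joins IgM and IgA into polymers, had 31809 and 49496 UMIs in the thinned sums, 1.56-fold higher (1.53 to 1.58), but its log2 ratio was −0.32 where cells were thinned before gating. Xbp1, which expands the secretory apparatus, stood at 470 and 810 CPM, Prdm1, the master regulator Blimp-1, at 42.2 and 72.0 CPM, and Sdc1, the plasma cell surface proteoglycan CD138, at 84.8 and 141 CPM. Slpi, a protease inhibitor, was 3.02-fold higher (2.89 to 3.15), with 54.2% of its 18m UMIs in 5 cells. Cells with at least 3 Jchain UMIs per 1000 made up 12.1% (8.71 to 16.2; 38 of 314) at 12m and 34.2% (27.5 to 41.4; 65 of 190) at 18m, a gate added after the data were seen. Y-positive cells gave 20.5% and 39.4%, and no T cell passed at either age. Beside the suture the shares were 35.4% (22.2 to 50.5) and 33.1% (24.8 to 42.2).

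**Figure D4:**
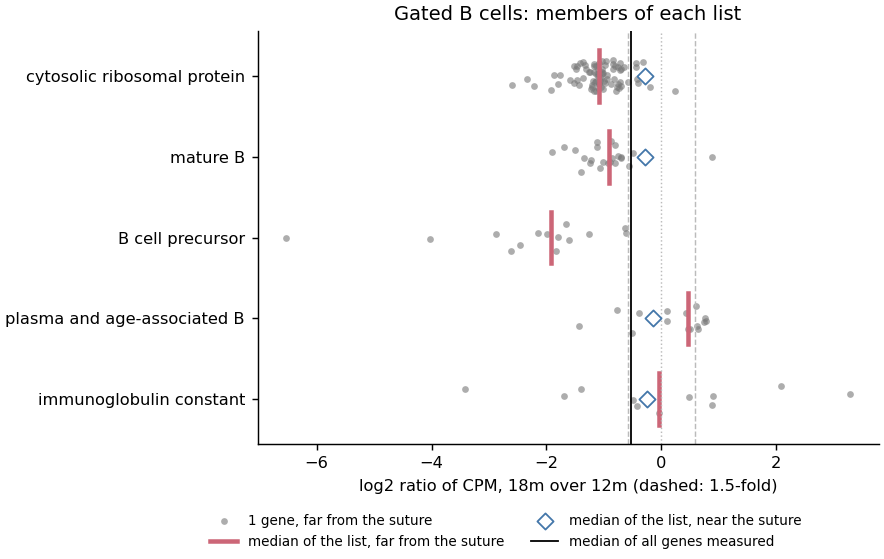
Log2 ratio of 18m to 12m in gated B cells far from the suture for each measured gene of fixed lists (points), with the median of each list (bar), the median beside the suture where at least 5 genes were measured (diamond) and the median of all genes measured (line). Precursor genes lie left of that line and plasma and age-associated genes right of it.

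In all QC cells none of the 5 measured plasma markers passed the fold (median 0.11), so the higher level within the B gate stood beside a smaller share of B cells. Unthinned B cells with at least 3 Jchain UMIs numbered 42 among the 4464 QC cells at 12m and 70 among the 6626 at 18m. Of 11 antibody constant genes 4 were higher and 3 lower. Igkc, the kappa light chain, was 1.40-fold higher (1.39 to 1.40), and at 0.752 of its 12m level beside the suture. Few cells carried most of the others. Some 99.5% of the 12m UMIs of Ighg2b and 75.5% of the 18m ones lay in 5 cells, and those of Ighg1 lay in 5 cells to 99.5% and 99.9%. The lambda genes Iglc1 (9.82-fold higher) and Iglc3 (10.7-fold lower) are near-identical and can share reads. At the age where each was high, 5 cells held 93.4% of the UMIs of Iglc1 and 91.5% of those of Iglc3.

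Ribosomal protein genes were lower for 73 of 81 in B cells and higher for none (median −1.08), and for 34 with 1 higher after centring. Neutrophil markers in gated B cells summed to 1685 CPM at 12m and 464 CPM at 18m and erythroid markers to 965 and 21.7 CPM. Without the Jchain-rich cells the ribosomal median was −0.75, and 176 genes were higher and 1156 lower of 4496.

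**Figure D5:**
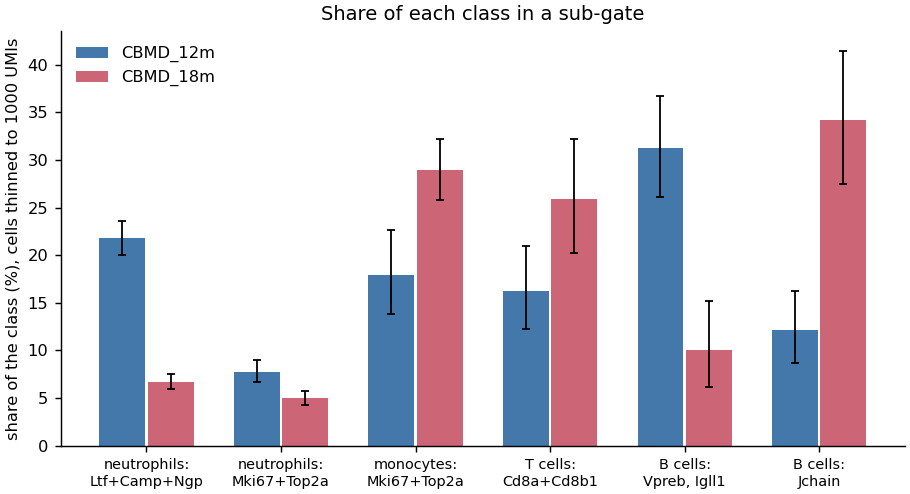
Share of each class (%) that passed a sub-gate in CBMD_12m and CBMD_18m, each cell thinned to 1000 UMIs, with exact 95% binomial intervals. Neutrophils with secondary granule message and B cells with Vpreb1, Vpreb3 or Igll1 message are fewer at 18m, dividing monocytes, Cd8 T cells and Jchain-rich B cells more.

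A small set of genes moved the same way in all 4 classes, named here after their values were seen. Of 4898 genes measured in each class, 0.184% (9) were higher in all 4 and 2.16% (106) lower in all 4. Lars2, a mitochondrial leucine tRNA synthetase, was higher with 344 and 1351 CPM in neutrophils, 294 and 1487 CPM in monocytes, 542 and 3452 CPM in T cells and 446 and 1804 CPM in B cells. Others were Fkbp5, a glucocorticoid-induced chaperone, the mitochondrial ribosomal RNAs mt-Rnr1 and mt-Rnr2, and Mir6236. Lars2 and Mir6236 hold sequence that resembles ribosomal RNA, so the reads assigned to them are uncertain.

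The 106 lower genes included 12 ribosomal protein genes, 4 hemoglobin genes and the mitochondrial genes mt-Atp6, mt-Co2 and mt-Co3. They also included Camp, Ngp and Chil3 of neutrophils and the antibody gene Ighg1, lower even in classes that do not make them. Camp had log2 ratios of −2.39 in T cells and −3.08 in B cells, and Ighg1 −3.09 in neutrophils. The part of RNA from other cells in this set was not tested. Rps10, a small subunit protein, was 3.62-fold lower in neutrophils, 3.40-fold in monocytes, 5.03-fold in T cells and 6.03-fold in B cells. It has processed copies elsewhere in the genome that can take its reads. Of the genes that could be measured in all 4 classes beside the suture, 4 of 5 higher and 15 of 36 lower ones were called the same way there.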

How the data were processed

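Each of the 6 libraries was 1 pool of mice at 1 age and site, and CBMD_12m and CBMD_18m were compared. The authors aligned reads and made the deposited UMI counts, which are not normalized, with Cell Ranger 5.0.1 on GRCm38, and all columns belonged to the samples (0 of no sample). Values were computed with scanpy 1.11.5, scipy 1.17.1, numpy 2.4.6 and pandas 2.3.3 in Python 3.11.15. UMIs of X- and Y-linked genes were left out, counts summed per class and the larger sum thinned at random to the smaller. Ratios have exact 95% intervals from the binomial split of both sums, shares exact Clopper-Pearson intervals. The steps were tested on simulated data. Doublets were scored with Scrublet and left out in an alternative only.

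The members, gates and gene lists were chosen with earlier results of these data known. Genes named are, per class, the 10 highest and 10 lowest ratios with at least 100 UMIs (50 in T and B cells), up to 4 leading members of each list in the direction of its median, gate genes and a set fixed from the study. Predicted genes, antibody and T cell receptor segments and mitochondrial genes stayed out of the first of these, and not all genes the rule allows are described. Other genes, such as those listed as the called members of a list, were chosen after their values were seen. Alternatives changed scaling, UMI minimum, gates, thinning, doublets and cells. Some genes are not reported here.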

Additional observations from a re-analysis of the deposited data

Results flagged for a closer look

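Several lists had medians of one sign far from the suture and the other sign beside it between 12m and 18m. These differences between sites were not tested, and each median log2 ratio is of 18m to 12m. In all QC cells, erythroid markers stood at −2.37 far from the suture and 1.03 beside it, mesenchymal markers at −0.89 and 2.85, mural markers at −3.31 and 1.20, and genes of the inflammatory secretory list at −0.63 and 0.74. In gated neutrophils the erythroid markers stood at −3.83 and 2.64, but at −0.78 far from the suture in Y-positive cells, and in all Y-positive cells at −0.79. In gated B cells the immediate early genes stood at −0.59 and 0.63, but the median gene of B cells far from the suture stood at −0.53 and centring on it left −0.066 for the list.

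Xist stood at 596 CPM in CBMD_12m, which is labelled male, a signal on a chromosome that the comparisons leave out.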

How the results depend on the processing

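Each age and site is 1 pool of mice, so no spread between mice was measured. Sex differed with age, classes came from gates on few transcripts, T and B cells numbered 190 to 318, and doublets stayed in. No paired analysis was possible because all samples carry replicate 1 and each age and site has 1 library, so leaving one out gives no comparison. Of 556 values of counts, lists and shares under an alternative, 467 stayed within 1.5-fold (counts) or the main interval, 86 moved and 3 reversed, which means that a value past 1.5-fold changed sign. Of 400 list medians, small ones included, 19 had the other sign. Of the genes named, 124, those that passed the fold kept their sign in 930 of 947 alternatives. Median-of-ratios scaling raised the part of calls that were higher from 30.8% to 46.2% in neutrophils, from 5.99% to 47.7% in B cells and from 26.7% to 35.7% in all cells. Values that moved or reversed follow, with list medians on the log2 scale. Causes were not tested beyond what each setting changes by construction.

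Without the Jchain-rich B cells, the counts were 1156 lower in B cells. In B cells the list medians were −0.30 (mature B), 0.95 (plasma B) and −0.75 (ribosomal). Log2 ratios of reversed sign were −0.24 for Iglc1, 7.11 for Ighg1 in B cells. With all classes thinned to the T cell total, the counts were 772 lower in neutrophils. With a minimum of 20 UMIs, the counts were 3444 lower in neutrophils, 991 higher and 1538 lower in monocytes, 1120 higher and 1551 lower in T cells and 416 higher in B cells. With a minimum of 200 UMIs, the counts were 540 higher and 1293 lower in all cells, 923 lower in neutrophils, 179 higher and 355 lower in monocytes, 73 higher and 271 lower in T cells and 82 higher and 1092 lower in B cells. In monocytes the list medians were −0.28 (interferon-stimulated). In cells as deposited, the ratio of the Vpreb1, Vpreb3 and Igll1 share was 0.568. With cells of several gates kept, the ratio of the monocyte share was 1.49. With cells thinned to 1000 UMIs before gating, the counts were 600 higher in all cells, 1319 lower in neutrophils, 16 higher and 38 lower in monocytes, 27 higher and 116 lower in T cells and 22 higher and 70 lower in B cells. In all cells the list medians were 0.026 (G2 and M phase). In neutrophils the list medians were −1.01 (ribosomal). In B cells the list medians were 0.055 (mature B) and −0.63 (ribosomal). The ratio of the T share was 0.353. The ratio of the B share was 0.230. Log2 ratios of reversed sign were 0.68 for Isg15, 0.74 for Cxcl2 in monocytes and 0.079 for Cd79a, −0.32 for Jchain, −0.042 for Iglc1 in B cells. With classes weighted alike, in all cells the list medians were −0.42 (T marker) and 0.22 (G2 and M phase). With immunoglobulin transcripts left out, the counts were 347 higher and 1658 lower in B cells. In B cells the list medians were −0.62 (mature B), 0.67 (plasma B) and −0.80 (ribosomal). With the mean of CPM over cells, the counts were 4340 lower in all cells and 323 higher in B cells. In all cells the list medians were −2.08 (B marker) and −0.10 (G2 and M phase). In neutrophils the list medians were −1.16 (S phase), −1.16 (ribosomal) and −0.79 (G2 and M phase). In B cells the list medians were −0.41 (mature B), 1.02 (plasma B) and −0.93 (ribosomal). With median-of-ratios scaling, the counts were 824 higher and 905 lower in B cells. In neutrophils the list medians were −0.70 (ribosomal). In B cells the list medians were −0.38 (mature B), 1.00 (plasma B) and −0.55 (ribosomal). Among neutrophils with secondary granule message, the counts were 639 lower in neutrophils. In neutrophils the list medians were −0.22 (secondary granule), −0.79 (immediate early), −0.99 (NF-kB target), 0.53 (S phase), 0.090 (histone), −0.12 (ribosomal), −0.16 (oxidative phosphorylation) and 1.39 (G2 and M phase). Log2 ratios of reversed sign were −0.58 for Prr5l, 0.19 for Camp, 0.035 for Chil3, −0.045 for Jun, −0.33 for Socs3, −0.36 for Gbp2 in neutrophils. Among neutrophils without it, in neutrophils the list medians were −0.34 (secondary granule), −1.0 (ribosomal) and −1.13 (G2 and M phase). Without QC limits, the ratio of the neutrophil share was 1.016. In Y-positive cells, the counts were 1314 lower in all cells, 760 lower in neutrophils, 594 lower in monocytes, 283 higher and 398 lower in T cells and 114 higher and 1078 lower in B cells. In all cells the list medians were −0.79 (erythroid marker) and 0.60 (G2 and M phase). In neutrophils the list medians were 0.69 (interferon-stimulated) and −0.66 (ribosomal). In monocytes the list medians were −0.38 (NF-kB target) and 0.24 (interferon-stimulated). In B cells the list medians were −0.49 (mature B) and −0.89 (ribosomal). In T cells the list medians were 0.47 (cytotoxic T). Log2 ratios of reversed sign were 0.65 for Col3a1 in all cells and 0.24 for Isg15, 0.098 for Cxcl2 in monocytes.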

Other observations

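Other cells of the suspension far from the suture, not gated as a class, differed as well. Of 5 measured markers of NK cells, innate cytotoxic lymphocytes, 4 were lower at 18m in all QC cells (median log2 ratio −1.08), and of 5 megakaryocyte markers 4 were lower (median −0.94). Basophil markers, of which 2 of 6 were lower (median −0.30), and endothelial markers, with 2 of 6 lower (median −0.35), moved less. Progenitor markers, the genes of primary granules and early stem cells, were lower for 3 of 7 (median −0.24).

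Among other gene lists summed over all QC cells, the 35 measured proteasome genes all stayed within 1.5-fold (median 0.09), as did the 10 measured inhibitors of the cell cycle (median −0.07). MHC class I presentation genes were lower for 5 of 18 (median −0.40) and MHC class II genes for 4 of 11 (median −0.21), with none higher. The T cell marker and B cell marker medians in the same cells were −1.42 and −1.69.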
